A study of Mus musculus with 6 samples.

Results

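Atrial-like cardiomyocytes were described here as 88 single-cell wells that held the RNA of a cardiomyocyte with more transcripts of Myl7 than of Myl2. Myl7 and Myl2 code for the regulatory myosin light chains of the atria and of the ventricles. The wells came from 1 library of immature cardiomyocytes (imCMs) and were chosen by their measured counts. A well entered when it carried 1 of 8 names (AFNCM1 to AFNCM3, NFNCM1 to NFNCM3, NCM0_1 or NCM0_2), at least 500 non-mitochondrial genes, at least 20 unique molecular identifiers (UMIs, each standing for 1 captured transcript) of the cardiac troponin T gene Tnnt2, and more Myl7 than Myl2 UMIs. Of 1409 wells with these names, 1344 passed the gene minimum and 1189 also the Tnnt2 minimum. Of these 1189 wells, 88 were atrial-like, 1096 held more Myl2 than Myl7 and are called ventricular-like here, and 5 held equal numbers.

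The animals were mice of the strain labelled C57BL/6. Per the study's methods, imCMs were taken from left ventricles of newborn hearts and grown on cardiac fibroblasts from neonatal hearts (NFs) or adult hearts (AFs), then separated from them by dye and flow sorting and dispensed as single cells into nanowells that were chosen by imaging. The series holds 1 single-cell library of cardiomyocytes, 1 of fibroblasts, and 4 bulk libraries, 2 of imCMs from NF co-culture (imCM-NF) and 2 of imCMs from AF co-culture (imCM-AF). No genotype or drug differed between the groups. Per the methods, fewer NFs than AFs were plated for each imCM, to allow for the growth of the NFs. Fibroblast age and plating ratio therefore cannot be told apart between AF and NF co-cultures. What the names NCM0_1 and NCM0_2 stand for is not given in the sources used here, and nothing ties a well name to a separate culture, so well names were not treated as replicates and no test was made between wells. Although left ventricles were the stated source, the marker check given next found wells with a full set of atrial transcripts.

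Atrial and ventricular cardiomyocytes share most of the contractile machinery, but each chamber has its own myosin light chains. Atrial cells store atrial natriuretic peptide in secretory granules, carry the acetylcholine-activated potassium channel and hold sarcolipin as an inhibitor of the calcium pump of the sarcoplasmic reticulum. In ventricular cells the related inhibitor is phospholamban, and the sarcomere uses Myl2 with Myl3.

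Stretches of DNA just upstream of 3 atrial markers and of Myl2 are shown because these genes define or lead the contrast between the 2 kinds of well. Each line gives the 250 bases before the gene's start in the RefSeq annotation of GRCm38.p6 (the assembly also called mm10), 5′ to 3′ on the gene's own strand, with capitals on the motif matches described after the lines. Myl7 lies on the minus strand with its stretch at chr11:5898783-5899032. The plus strand carries the stretches of Nppa at chr4:148000472-148000721, Mybphl at chr3:108364661-108364910 and Myl2 at chr5:122092474-122092723.
Myl7: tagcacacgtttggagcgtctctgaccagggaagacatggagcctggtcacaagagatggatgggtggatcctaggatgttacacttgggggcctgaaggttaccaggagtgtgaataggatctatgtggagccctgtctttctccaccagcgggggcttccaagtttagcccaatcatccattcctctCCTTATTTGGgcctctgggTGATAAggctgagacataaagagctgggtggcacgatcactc
Nppa: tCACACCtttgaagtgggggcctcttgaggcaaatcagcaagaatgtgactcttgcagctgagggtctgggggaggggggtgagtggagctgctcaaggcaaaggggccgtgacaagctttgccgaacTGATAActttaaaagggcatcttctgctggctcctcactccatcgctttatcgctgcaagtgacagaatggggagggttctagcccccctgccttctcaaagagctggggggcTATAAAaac
Mybphl: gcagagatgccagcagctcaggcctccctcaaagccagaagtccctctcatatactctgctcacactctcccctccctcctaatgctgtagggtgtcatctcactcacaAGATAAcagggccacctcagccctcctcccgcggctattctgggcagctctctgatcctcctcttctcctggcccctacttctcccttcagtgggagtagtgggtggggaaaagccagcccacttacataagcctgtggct
Myl2: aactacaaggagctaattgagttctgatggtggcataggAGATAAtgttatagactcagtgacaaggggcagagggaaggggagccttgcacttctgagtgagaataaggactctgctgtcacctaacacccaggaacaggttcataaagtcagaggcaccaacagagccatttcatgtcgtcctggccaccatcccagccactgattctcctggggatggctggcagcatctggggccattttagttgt

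In these stretches 5 motifs were searched on both strands. The first was the TATA box, as TATAAA. The second was the core of T-box sites, GGTGTG. The third was a group of GATA sites, written AGATAA or TGATAA. The group also took in the forms that end in G, AGATAG and TGATAG. The others were the CArG box and the MEF2 site. Myl7 held TGATAA from 42 bases and a CArG box from 61 bases before its start. Nppa held TATAAA from 9 bases, TGATAA from 122 bases and CACACC, the reverse complement of GGTGTG, from 249 bases before its start. Mybphl held AGATAA from 141 bases and Myl2 AGATAA from 211 bases before its first listed start. A second start is listed for Myl2, and its stretch at chr5:122092939-122093188 held TATAAA and no GATA motif. For the lists that follow, a gene with several starts was counted by the first one listed, so the TATAAA of Myl2 is left out. Matches were frequent elsewhere: of 32851 promoter stretches of this length, 26.5% held a motif of the GATA group, 16.3% GGTGTG, 12.4% TATAAA, 2.92% a MEF2 site and 1.47% a CArG box. Of the 7 atrial markers 6 had an entry, of which 4 held a GATA motif, 3 GGTGTG, 1 TATAAA, 1 a CArG box and 0 a MEF2 site; Sln had none. Of the 16 genes of the ventricular list 14 had an entry, of which 5 held a GATA motif, 4 TATAAA, 3 GGTGTG, 2 a CArG box and 1 a MEF2 site. Such a match describes letters in this window and was not measured as a binding site.

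The share of Myl7 among Myl7 and Myl2 UMIs was two-peaked over the 1189 wells. In 863 wells it was at most 10%, and in 46 wells it was above 90%. The range between was not empty: 111 wells had a share of 10 to 20%, 56 of 20 to 30% and 45 of 30 to 40%. Above the limit, 16 wells had a share of 50 to 60%, 8 of 60 to 70%, 10 of 70 to 80% and 8 of 80 to 90%. In 54 of the 88 atrial-like wells Myl7 exceeded Myl2 by more than 4 times (called Myl7-dominant here), while 34 wells lay nearer to the limit (called near-limit). The exact 95% interval of the Myl7 share lay wholly above 50% in 51 of the 54 Myl7-dominant wells but in 8 of the 34 near-limit wells. Intervals here and throughout cover counting error only.

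**Figure D1:**
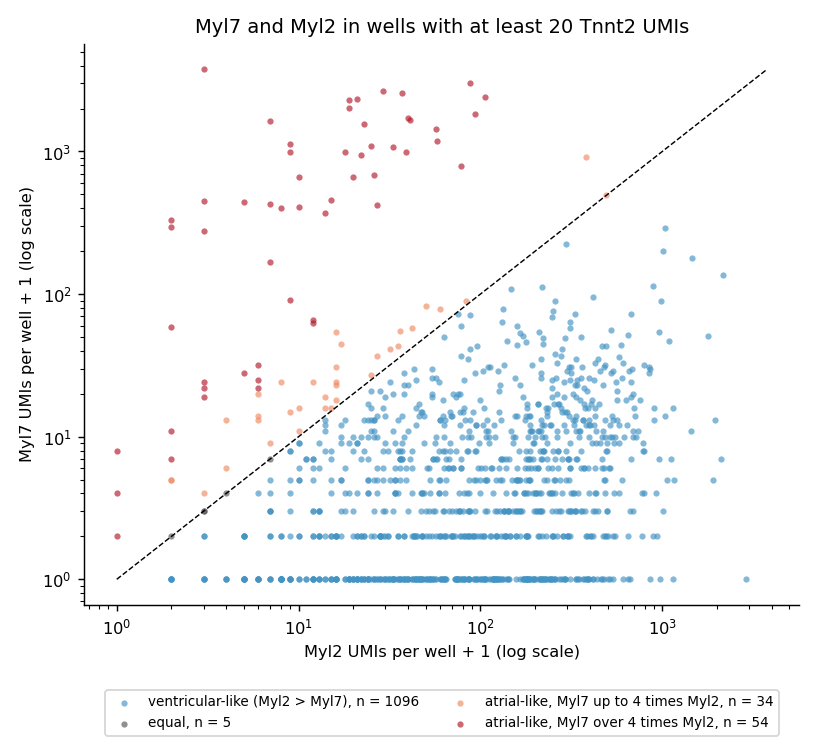
Myl7 against Myl2 UMIs per well, with 1 point for each of the 1189 wells past the Tnnt2 minimum, on log axes. The 88 atrial-like wells lie on the Myl7 side of equality, 54 of them with more than 4 times as much Myl7 as Myl2.

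Most wells on both sides of the limit held few of the other atrial markers. The 16 wells with a Myl7 share of 50 to 60% had a median of 102.5 Tnnt2 UMIs, and 5 of them held at least 3 of the 6 other atrial markers (Sln, Myl4, Nppa, Kcnj3, Sbk2, Mybphl). The 23 wells with a share of 40 to 50% had a median of 67 Tnnt2 UMIs, and 3 of them held at least 3 of these markers.

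Atrial markers separated the Myl7-dominant wells from the rest. At least 3 of the 6 markers were present in 44 of 54 Myl7-dominant wells (81.5%), 10 of 34 near-limit wells (29.4%) and 162 of 1096 ventricular-like wells (14.8%). All 6 were present in 28 Myl7-dominant wells, 2 near-limit wells and 0 ventricular-like wells, which allows a share of up to 0.274% of such wells. With every well thinned to 5000 UMIs and shallower wells left out, 39 of 44 Myl7-dominant wells (88.6%), 3 of 28 near-limit wells (10.7%) and 28 of 962 ventricular-like wells (2.91%) still held at least 3. The label atrial-like was therefore borne by markers in the Myl7-dominant wells and in a minority of the near-limit wells.

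Free RNA can place a few UMIs in wells of any cell. Adult fibroblasts should lack these genes, but their wells were on the chip of the fibroblasts library and do not measure free RNA on the cardiomyocytes chip. Among 438 wells named AF there, at a median of 40223 UMIs, Myl7 was seen in 3.65%, Sln in 1.37% and Nppa in 4.79% of wells. Myl4 was seen in 70 and Myl2 in 142 of the 438 wells, and Mybphl in 0. These shares take in wells past the Tnnt2 minimum, 6 named AF0_1, 13 AF0_2, 6 AF1 and 4 AF2. Of the AF1 wells past it, 1 held more Myl7 than Myl2, and a single well named AF held 574 Myl2 UMIs. Shares were higher on the cardiomyocytes chip outside the atrial-like class. The ventricular-like wells held Sln in 30.9%, Nppa in 57.2%, Myl4 in 46.6% and Mybphl in 1.28% of wells at a median of 22002.5 UMIs, and the 155 wells under the Tnnt2 minimum held Sln in 14.2% and Nppa in 25.2% at a median of 3258 UMIs. In the atrial-like wells, at a median of 24217.5 UMIs, Sln was seen in 67.0%, Nppa in 86.4% and Mybphl in 46.6% of wells. The 2 libraries were run on separate chips, and 269 well barcodes occurred on both.

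**Figure D2:**
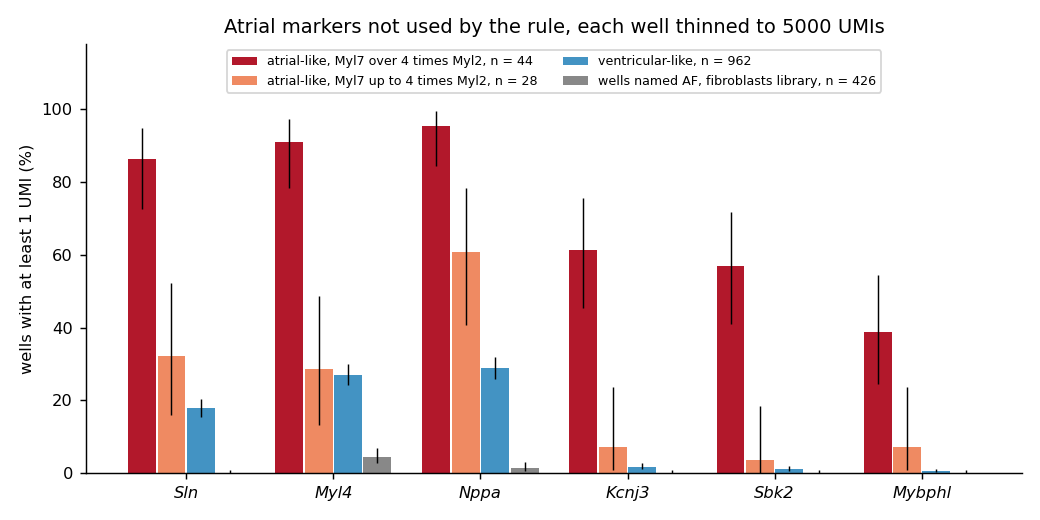
Percent of wells with at least 1 UMI of each atrial marker, by class of well, each well thinned to 5000 UMIs, with exact 95% binomial intervals for counting error. For each of the 6 genes detection was highest in the Myl7-dominant wells, where Sln was seen in 86.4% of thinned wells.

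Depth was similar in the 2 kinds of well when all names were pooled. Atrial-like wells then held a median of 24217.5 UMIs and 2825 genes outside the mitochondrial genome with 20.3% mitochondrial UMIs. Ventricular-like wells held 22002.5 UMIs and 2932 genes with 21.7%. By name, median UMIs in atrial-like against ventricular-like wells were 29297 against 24571.5 in AFNCM, 13587 against 23405 in NFNCM and 18902 against 17084 in NCM0. Median Tnnt2 was 358.5 UMIs in the Myl7-dominant wells, 87.5 in the near-limit wells and 203.5 in the ventricular-like wells. Summed over a list of 20 sarcomere genes, the median well held 63955 CPM (UMIs in every 1e+06 UMIs that were not mitochondrial) in the Myl7-dominant, 24189 CPM in the near-limit and 59849 CPM in the ventricular-like wells. A list of 10 fibroblast genes ran the other way, at 1260, 3570 and 1595 CPM. The near-limit wells thus carried less sarcomere RNA and more fibroblast RNA than the others, and its part in their Myl7 share was not tested.

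To describe gene expression, UMIs were summed over the wells of a kind and scaled to CPM. Since Myl7 and Myl2 chose the wells, all ratios between the kinds are descriptions without a test. Of 5705 genes with a mean of at least 20 CPM, 278 (4.87%) were more than 2-fold higher and 136 (2.38%) more than 2-fold lower in the atrial-like wells. Over the 8 well names, 23 genes (0.403%) were higher without overlap and 24 (0.421%) lower without overlap.

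The myosin light chains of the atria stood far above their ventricular-like level. Myl7, which the rule used, ranged over well names from 7344 to 36604 CPM with a median of 19810 CPM in the atrial-like wells, and from 148 to 587 CPM with a median of 230 CPM in the ventricular-like wells. Myl4, the atrial essential light chain, ranged from 624 to 4083 CPM with a median of 1873 CPM, against 56.2 to 203 CPM with a median of 107 CPM. Over all wells Myl4 was at 1816 CPM against 102 CPM, a log2 ratio of 4.16 (interval 4.09 to 4.22). Myl1, another essential light chain of striated muscle, was at 1619 against 399 CPM, a log2 ratio of 2.02. The lowest well name of the atrial-like wells stood above the highest of the ventricular-like wells for Myl7, Myl4 and Myl1.

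Sln and the natriuretic peptides followed the light chains. Sln, which codes for sarcolipin, ranged from 2021 to 17036 CPM with a median of 7179 CPM, against 24.0 to 90.2 CPM with a median of 59.7 CPM. Its log2 ratio was 6.97 (interval 6.90 to 7.04). Nppa, which codes for atrial natriuretic peptide, ranged from 1087 to 5627 CPM with a median of 3224 CPM, against 45.7 to 155 CPM with a median of 68.3 CPM. Its log2 ratio was 5.03. Nppb, the related peptide gene that is usually counted with the ventricle in the list used here, was at 705 against 143 CPM, and its well names overlapped. Pam, the enzyme that amidates peptides and a main membrane protein of atrial granules, was at 1247 against 265 CPM without overlap. Natriuretic and secretory genes as a list had 5 of 12 members tested, of which 3 were more than 2-fold higher and 0 lower, with a median log2 ratio of 2.24 against 0.04 over all genes. Chga, Chgb, Scg2 and Npr1 had 0 UMIs in the atrial-like wells.

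The largest ratios belonged to genes of low level. Mybphl, a myosin-binding protein of the atria, ranged from 36.3 to 240 CPM with a median of 126 CPM, against 0 to 1.31 CPM. It was at 111 against 0.732 CPM over all wells, a log2 ratio of 7.24 (interval 6.66 to 7.88). Sbk2, an SH3-domain-binding kinase, was at 172 against 1.21 CPM, a log2 ratio of 7.15. Its relative Sbk3 was at 50.1 against 0.676 CPM, with 45.7% of its atrial-like UMIs in 1 well. For Mybphl, Sbk2 and Sbk3 every well name was higher in the atrial-like wells, without overlap.

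Channel and conduction genes were split. Kcnj3, a subunit of the acetylcholine-activated potassium channel, ranged from 98.3 to 731 CPM with a median of 230 CPM, against 0.645 to 11.5 CPM with a median of 4.20 CPM. Fgf12, a cytosolic regulator of sodium channels, was at 146 against 3.46 CPM. Gja5, the gap junction protein connexin 40, was at 59.9 against 3.89 CPM, with overlapping well names. On the lower side, Kcne1, a potassium channel regulator, was at 72.3 against 361 CPM without overlap. Abcc9, the sulfonylurea receptor of the KATP channel, was at 18.2 against 92.6 CPM. Of the 26 channel genes listed, 8 were tested, of which 2 were more than 2-fold higher and 3 lower.

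Of the list of 20 further atrial genes, 9 were tested and 8 of them were more than 2-fold higher, with a median log2 ratio of 3.95. Over all 5705 genes the share more than 2-fold higher was 4.87%. A gene low in the ventricular-like wells passes the level filter through the atrial-like wells, so the count is a description. Tbx5, a T-box factor of the atria, was at 70.8 against 8.05 CPM without overlap. Stard10, a lipid-transfer protein, was at 147 against 7.43 CPM, and Dkk3, a secreted member of the Dickkopf family, at 149 against 7.21 CPM. Chrm2, the muscarinic receptor of the heart, was at 147 against 82.9 CPM and stayed within 2-fold. The other 11 members were below the level filter, among them Nr2f1, Nr2f2 and Bmp10, the last with 0 UMIs in the atrial-like wells.

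**Figure D3:**
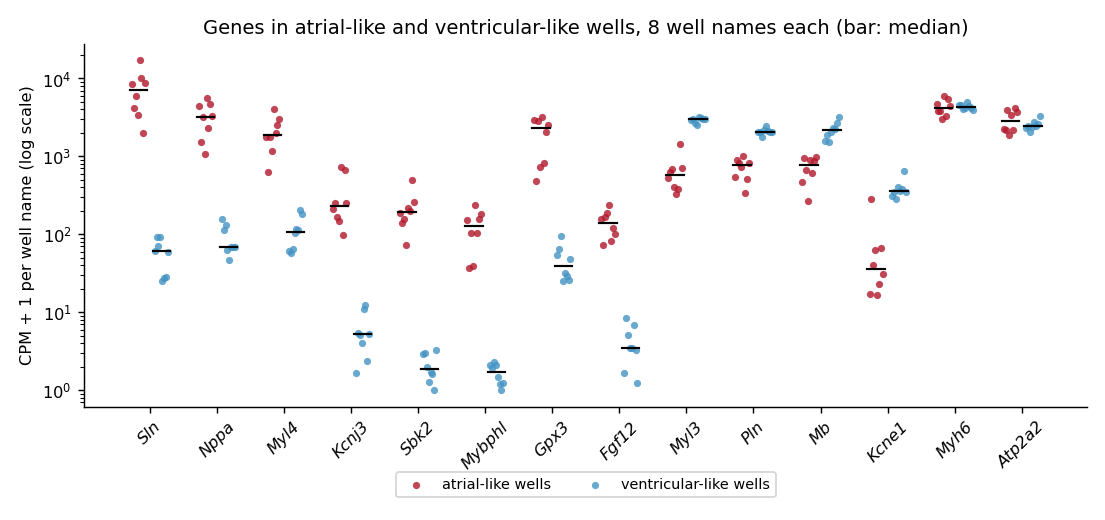
CPM plus 1 of selected genes for each of the 8 well names in the atrial-like and the ventricular-like wells, on a log axis, with bars at the medians. Mybphl, Sln and Nppa stand apart without overlap, and Myl3 and Pln stand apart in the other direction.

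Ventricular genes were lower, though not all of them. Myl3, the ventricular essential light chain, ranged from 329 to 1426 CPM with a median of 584 CPM, against 2504 to 3191 CPM with a median of 3022 CPM. Its log2 ratio was -2.38 (interval -2.45 to -2.31). Pln, which codes for phospholamban, ranged from 342 to 1022 CPM against 1760 to 2419 CPM, and stood at 727 against 2075 CPM over all wells. Irx5, a homeodomain factor of the ventricular wall, was at 1.82 against 29.9 CPM, under the level filter but without overlap between well names. Mb, the oxygen carrier myoglobin, was at 649 against 2112 CPM, and Ckmt2, the mitochondrial creatine kinase, at 39.2 against 174 CPM. Of the 16 ventricular genes 8 were used besides Myl2, of which 4 were more than 2-fold lower and 1, Nppb, was higher, with a median log2 ratio of -0.98. Myh7, the slow myosin heavy chain, was at 144 and 150 CPM.

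The contractile core was shared. Of 19 sarcomere genes tested, 0 were past 2-fold either way, and the median log2 ratio was -0.11. Myh6 was at 4108 and 4381 CPM, Ttn at 3004 and 3015 CPM and Actc1 at 4450 and 4598 CPM. Atp2a2, the calcium pump of the sarcoplasmic reticulum, was at 2774 and 2520 CPM. Ryr2, its release channel, was at 238 against 145 CPM and higher under all 8 well names. The factors Nkx2-5 and Tbx20 were at 83.5 and 81.8 CPM and at 151 and 147 CPM, whereas Gata4 was at 43.9 against 79.1 CPM. In the Myl7-dominant wells alone the sarcomere median was 0.32, and in the near-limit wells -1.28.

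Fatty acid oxidation genes leaned lower. Of 19 tested, 16 had a lower level in the atrial-like wells, though 2 were past 2-fold lower and 1 past 2-fold higher. Over all 5705 genes, 2582 had a lower level. Acsl1, which activates fatty acids, was at 14.9 against 59.1 CPM, and Fabp3, the heart fatty-acid-binding protein, at 169 against 376 CPM. The median log2 ratio was -0.47, and -0.39 in the Myl7-dominant wells alone, beside 0.04 and -0.14 over all genes.

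Pacemaker genes were mostly too low to judge. Of 12 listed, 4 were tested, of which Smoc2 was higher at 46.8 against 6.48 CPM and Gjc1, connexin 45, lower at 47.2 against 103 CPM. Hcn4, the main pacemaker channel, was at 1.82 CPM in the atrial-like and 0.732 CPM in the ventricular-like wells, Shox2 at 2.54 and 2.03 CPM, and Isl1 had 0 UMIs in the atrial-like wells.

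Macrophage RNA lay mostly in a single well. For macrophage genes 3 of 8 were tested and their median log2 ratio was 1.73, but -2.92 in the Myl7-dominant wells. A single NFNCM1 well with 27 Tnnt2 and 10 Myl7 UMIs held 94.0% of the Lyz2, 92.2% of the Apoe, 95.9% of the Tyrobp and 68.3% of the Plek UMIs of all atrial-like wells. Plek, a protein of blood cells and 1 of the 15 leading higher genes, was lower in the Myl7-dominant wells, at 0.595 CPM against 16.3 CPM in the ventricular-like wells. Fibroblast genes had a median log2 ratio of 0.45 in all atrial-like wells, 1.22 in the near-limit and -0.74 in the Myl7-dominant wells, and were not confined to a single well, since the highest held 23.4% of the Col1a1 UMIs. For cell cycle genes the median was 0.64 in all atrial-like, 1.44 in the near-limit and -0.40 in the Myl7-dominant wells. For interferon response genes it was 0.06, 0.64 and -0.96 in the same order. Of 8 endothelial genes 3 were tested, with a median of -0.57. The smooth muscle list had 3 of 8 genes tested with a median of -0.29, and the epicardial list 1 of 8 at -0.16.

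The share of atrial-like wells was counted by well name next. It was 9.32% (44 of 472, interval 6.86 to 12.3%) in wells named AFNCM, 7.49% (35 of 467, 5.28 to 10.3%) in wells named NFNCM and 3.60% (9 of 250, 1.66 to 6.72%) in wells named NCM0. Single names ran from 13 of 124 wells in AFNCM1 (10.5%) to 5 of 151 in NCM0_2 (3.31%). The AFNCM and NFNCM intervals overlapped. With Myl7-dominant wells alone the order turned, to 4.24% in AFNCM and 5.78% in NFNCM, with 2.80% in NCM0. Near-limit wells were 24 of the 44 atrial-like wells in AFNCM but 8 of 35 in NFNCM.

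**Figure D4:**
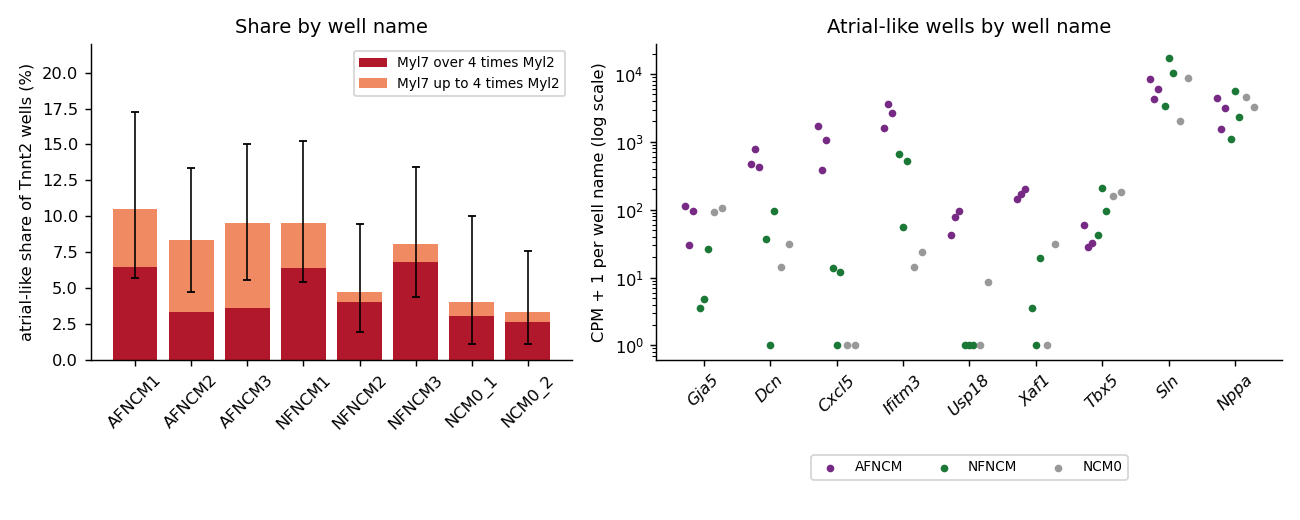
Atrial-like share of Tnnt2-positive wells by well name, stacked as Myl7-dominant and near-limit wells with exact 95% binomial intervals of the whole share, and CPM plus 1 of selected genes on a log axis in atrial-like wells named AFNCM, NFNCM and NCM0. The Myl7-dominant share was 4.24% in AFNCM and 5.78% in NFNCM.

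The RNA of atrial-like wells was then described between the 44 AFNCM and 35 NFNCM wells, for which fibroblast age and plating ratio differ together. Median depth was 29297 UMIs in the former and 13587 in the latter, and the share of near-limit wells differed as given above; the part of either in the ratios was not tested. Of 5714 genes, 879 (15.4%) were more than 2-fold higher in AFNCM and 569 (9.96%) more than 2-fold lower. Over the 3 names a side, 424 (7.42%) were higher without overlap and 166 (2.91%) lower without overlap.

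Interferon response genes were higher in AFNCM. Ifitm3, an antiviral membrane protein, was at 1589, 3587 and 2674 CPM in AFNCM1 to AFNCM3, at 673, 54.2 and 521 CPM in NFNCM1 to NFNCM3, and at 13.2 and 22.8 CPM in NCM0. Its log2 ratio was 2.48 in the atrial-like and 2.81 in the ventricular-like wells. Usp18, which restrains interferon signalling, was at 40.7, 77.1 and 94.2 CPM in AFNCM and had 0 UMIs in NFNCM, at least 4.45 higher on the log2 scale when 3 counts are set as the floor of the NFNCM wells together. Of 26 listed genes 13 were tested, 11 of them more than 2-fold higher in AFNCM, 1 more than 2-fold lower and 8 higher without overlap, with a median log2 ratio of 2.48. A gene near 0 on one side passes the level filter through the other, so the count is a description. The median of the same genes in ventricular-like wells was 3.90.

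Of 8 fibroblast genes tested 4 were more than 2-fold higher in AFNCM, 1 was more than 2-fold lower, and the median log2 ratio was 0.80. Dcn, the matrix proteoglycan decorin, was at 474, 780 and 419 CPM in AFNCM and at 35.8, 0 and 94.7 CPM in NFNCM. Cxcl5, a neutrophil chemokine, was at 1716, 385 and 1047 CPM against 12.8, 0 and 10.9 CPM. Because fibroblasts grew with the imCMs, RNA made by the cardiomyocyte and RNA carried over from fibroblasts cannot be told apart in these wells.

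Atrial identity genes themselves did not separate. None of the 7 atrial markers was past 2-fold between AFNCM and NFNCM, and their median log2 ratio was -0.53. The 7 include Myl7, whose counts chose the wells on both sides. Over all 5714 genes 15.4% were more than 2-fold higher and 9.96% more than 2-fold lower, so this count does not set the markers apart. Sln was at 8418, 4235 and 5940 CPM in AFNCM and at 3407, 17036 and 10223 CPM in NFNCM. Nppa was at 4439, 1526 and 3162 CPM and at 1087, 5627 and 2294 CPM. Both overlapped between the names.

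Of 12 further atrial genes tested, 3 were more than 2-fold higher and 2 more than 2-fold lower in AFNCM, and 1, Gja5, was higher without overlap. Over all 5714 genes these shares were 15.4%, 9.96% and 7.42%, so the counts for 12 genes do not set this list apart. Gja5 was at 113, 29.5 and 94.2 CPM in AFNCM, at 2.56, 3.87 and 25.5 CPM in NFNCM, and at 92.4 and 106 CPM in NCM0. The AFNCM names stood above the NFNCM names, with UMIs in 21 of 44 against 6 of 35 wells and a log2 ratio of 3.09 (interval 2.13 to 4.25). In the Myl7-dominant wells alone it was 3.26, but there the names overlapped. Tbx5 leaned the other way, at 39.5 against 103 CPM, with overlapping names. In the Myl7-dominant wells it was at 73.3 against 149 CPM, a log2 ratio of -1.03, and lower in AFNCM without overlap.

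The bulk libraries offered the only replicated comparison, and the rule did not use them. Bulk imCM RNA mixes atrial-like with ventricular-like cells, so fewer cells of a kind and less RNA per cell cannot be told apart. Counts per library summed to between 9278909 and 12088577. Of 14041 genes tested, 864 (6.15%) were called higher and 700 (4.99%) lower in imCM-AF, which is 11.1% in either direction. Calls were made at an adjusted p below 0.05 (edgeR, quasi-likelihood) and a fold change beyond 0.58 on the log2 scale in either direction. Nothing says that the 2 libraries of a group were separate cultures, so p-values measure the spread between these libraries.

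Of the 7 atrial markers 1 rose, 1 fell and 5 did not pass, while 6.15% of all genes tested rose and 4.99% fell. Nppa (chr4:148000722-148002074) was at 7250 and 4778 CPM in imCM-NF and at 3170 and 3430 CPM in imCM-AF. On the log2 scale this was a change of -0.87 ± 0.22 (SE, n = 2 libraries a group, edgeR adjusted p = 0.00751). Both imCM-AF libraries lay below both imCM-NF libraries. The call was lost with the replicate number as a block (adjusted p = 0.125), without the first imCM-NF library (log2 fold change -0.54) and without the first imCM-AF library (adjusted p = 0.0583). Kcnj3 (chr2:55411798-55598145) was at 6.80 and 4.71 CPM in imCM-NF and at 8.76 and 10.1 CPM in imCM-AF. This amounted to 0.74 ± 0.21 (log2 fold change with SE; edgeR adjusted p = 0.0152). Its call was lost under DESeq2 (adjusted p = 0.0837) and without the second imCM-NF library (log2 fold change 0.48). It was also lost without the second imCM-AF library, where the log2 fold change of 0.64 passed the fold threshold but the adjusted p did not pass. Between single-cell wells named AFNCM and NFNCM, Nppa and Kcnj3 leaned the other way. The log2 ratio of AFNCM over NFNCM for Nppa was 0.22 in atrial-like and 1.15 in ventricular-like wells. For Kcnj3 it was -0.53 and -1.43, the latter at 3.20 against 8.62 CPM. Those wells came from 1 library, and the difference from bulk was not tested.

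Myl7 and Sln gave no call. Myl7 (chr11:5896637-5898782) was at 559 and 472 CPM in imCM-NF and at 562 and 546 CPM in imCM-AF, which on the log2 scale differed by 0.10 ± 0.12. Sln (chr9:53850251-53853849) was at 34.2 and 34.9 CPM against 38.1 and 38.7 CPM, a change of 0.15 ± 0.10. Bulk Sln thus stood far below bulk Nppa, whereas in the atrial-like wells Sln was at 7312 CPM and Nppa at 3059 CPM. Which cells made the bulk Nppa was not tested. Gja5, which stood apart between AFNCM and NFNCM in the atrial-like wells, was at 44.9 and 41.2 CPM against 42.9 and 44.5 CPM in bulk. Mybphl was at 36.0 and 35.6 CPM against 48.6 and 46.1 CPM, a change of 0.40 with an edgeR adjusted p of 0.00647, below the fold threshold.

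Of 18 further atrial genes tested, 5 rose and 0 fell, beside 6.15% and 4.99% over all genes tested. Kcnj5, the partner of Kcnj3 in the acetylcholine-activated channel, was at 33.9 and 33.4 CPM in imCM-NF and at 50.1 and 54.9 CPM in imCM-AF. Its rise was 0.64 on the log2 scale (edgeR adjusted p = 0.000208). Kcnk3, Abcc8, Myl1 and Bmp10 were the others, at 0.67, 0.73, 0.66 and 0.88. The Bmp10 call was lost in each fit that left out 1 library and under DESeq2 (adjusted p = 0.147).

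Of 16 ventricular genes tested, 5 rose, 0 fell and 11 did not pass, while 6.15% of all genes tested rose and 4.99% fell. Those that rose were Cd36, Kcnip2, Pln, Kcnj2 and Irx4. Myl3 was at 0.04 and Hey2 at -0.29 on the log2 scale without a call. Cd36, a fatty acid transporter, was at 78.7 and 63.4 CPM in imCM-NF and at 171 and 190 CPM in imCM-AF. Its rise was 1.35 ± 0.11 on the log2 scale (edgeR adjusted p = 2.56e-07). Pln was at 952 and 698 CPM against 1185 and 1481 CPM, a change of 0.69. The median log2 fold change was 0.15 for the atrial markers, 0.32 for the further atrial genes and 0.30 for the ventricular genes, beside 0.00 over all genes tested. Without the second imCM-NF library 2 ventricular and 3 further atrial genes were called.

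**Figure D5:**
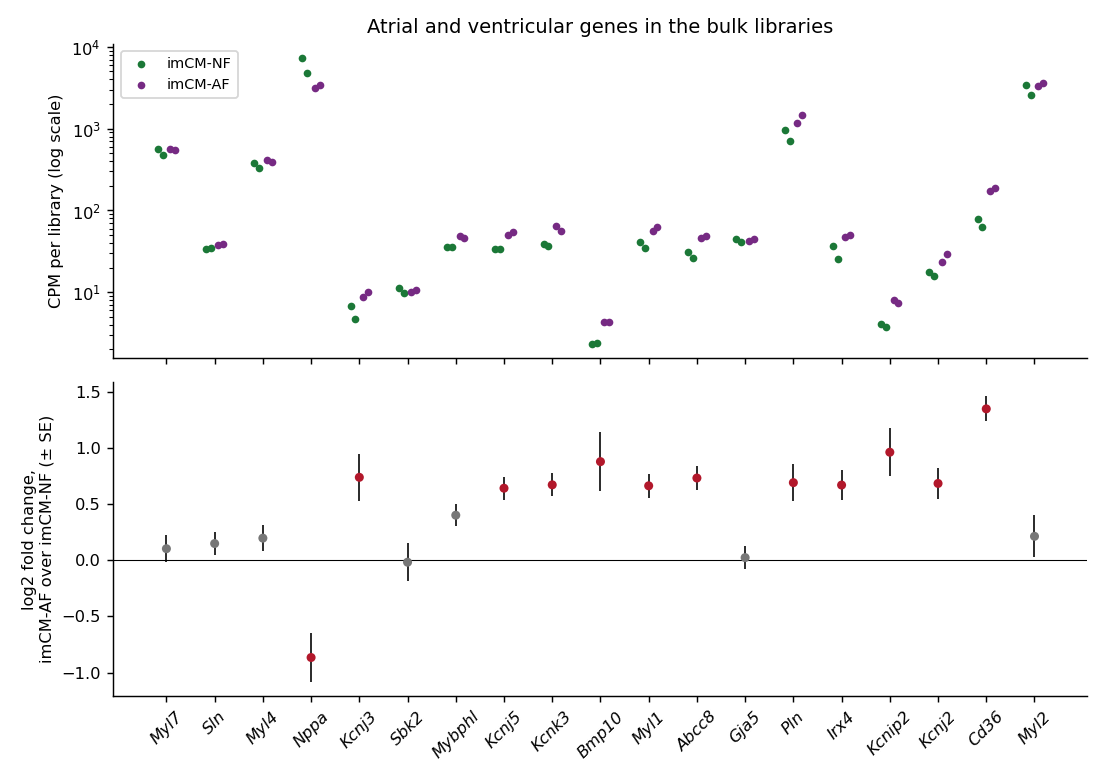
CPM of selected atrial and ventricular genes in the 4 bulk libraries on a log axis, above their log2 fold changes in imCM-AF over imCM-NF with SE bars. Called genes are red and others grey, and of the 7 atrial markers Kcnj3 was called higher and Nppa lower.

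Pacemaker genes fell where they were called. Of 10 tested, 2 fell and 0 rose, beside 4.99% and 6.15% over all genes tested. Smoc2, a matrix protein, was at 26.0 and 32.1 CPM against 14.1 and 10.4 CPM. Its change was -1.25 on the log2 scale (edgeR adjusted p = 1.84e-05). Hcn4 was at 8.36 and 6.11 CPM against 4.47 and 4.54 CPM, a change of -0.66, and its call was lost with the replicate block (adjusted p = 0.0573) and under DESeq2 (adjusted p = 0.175).

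The genes that led the wells were looked up in bulk in the same way. Of the 15 leading higher genes in the atrial-like wells, Spon1, Kcnj3 and Myl1 rose, Nppa fell and 11 did not pass. Of the 15 leading lower genes, Abcc9, Ckmt2, Pln and Iigp1 rose and 11 did not pass. Over all genes tested, 6.15% were called higher and 4.99% lower. Counted by sign alone, 13 of the 15 leading higher and all 15 leading lower genes leaned higher in imCM-AF. Over all 14041 genes tested, 7035 did. Iigp1, an interferon-induced GTPase, was at 54.9 and 24.9 CPM against 107 and 112 CPM. Its call depended on how the spread was estimated, with an edgeR adjusted p of 5.93e-05 by default and 0.142 with robust dispersion. Median log2 fold changes were 0.28 and 0.29.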

How the data were processed

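Single-cell RNA-Seq was deposited as UMI counts per gene and well for 1 cardiomyocytes library and 1 fibroblasts library, and bulk RNA-Seq as raw counts per gene. Per the study's methods, the authors trimmed single-cell reads with cutadapt, screened them for contaminants, aligned them to mm10 with STAR (2.5.2b per the submitters' processing notes) and assigned them to Ensembl genes with featureCounts; bulk reads were aligned with Subread as an R package and counted against the RefSeq annotation of featureCounts. The processing notes also name Subread 1.4.6-p1, without a step. The use of strand in counting is not given in the sources used here. A deposited table of the authors' own fold changes was not used.

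Wells had a name in a separate deposited table. Symbols were matched for all but 533 of 28085 identifiers (0.423% of UMIs). The 85 spike-in columns were left out. No doublet caller was run, since wells had been chosen by imaging. UMIs were summed per kind of well and given as CPM with exact Poisson intervals, and shares with exact (Clopper-Pearson) binomial intervals at 95%. Genes needed a mean of 20 CPM and 30 UMIs. Log2 ratios against 0 UMIs used a floor of 3 counts per group.

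Bulk genes with CPM over 1 in at least 2 libraries were tested with edgeR 4.0.16 (TMM, quasi-likelihood, Benjamini-Hochberg) in R 4.3.3. The fit was first run with robust dispersion (1552 calls). After those calls were seen it was changed to edgeR's default (1564 calls), to match earlier processing of the same files, and the robust fit was kept as an alternative. On data simulated for this comparison, 97% of 100 genes changed by 1 on the log2 scale and 100% of 100 changed by 2 were called, out of 13895 genes run. limma 3.58.1 and DESeq2 1.42.0 served as alternatives, beside other scalings, filters, well limits and left-out libraries.

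The wells and gene lists were chosen with earlier results of these data known. Named genes were list members, the 15 highest and 15 lowest ratios (mean of at least 50 CPM, same direction in AFNCM, NFNCM and NCM0) and, between AFNCM and NFNCM, the 10 highest and lowest. Apoe was named after its value was seen.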

Additional observations from a re-analysis of the deposited data

Results flagged for a closer look

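The fibroblasts library was not used in the comparisons, and wells with an atrial-like count pattern were present in it. Of its 1044 wells with at least 500 genes, 354 passed the Tnnt2 minimum, and 32 of these held more Myl7 than Myl2 UMIs. They were named NF0_2 (18 wells), NF0_1 (9 wells), NF1 (2 wells), NF2 (2 wells) and AF1 (1 well). Of the 10 negative control wells of both chips, 1, on the cardiomyocytes chip, passed both minimums with 561 genes and 26 Tnnt2 UMIs, and it held 3 Myl2 and 0 Myl7 UMIs, so 0 were atrial-like. In the 32 wells Myl7 was at 1557 CPM and Sln at 502 CPM, against 28.8 and 6.00 CPM in the other Tnnt2 wells of that library. A single NF0_2 well held 85.3% of the Myl7 and 83.9% of the Sln UMIs of the 32 wells, and without it, a setting chosen after seeing the data, they were at 242 and 85.5 CPM. Counts were low in most of them, with a median of 7.5 Myl7 UMIs, and 4 of the 32 held at least 3 of the 6 other atrial markers.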

How the results depend on the processing

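Under the alternatives tried, the 30 leading genes stayed past 2-fold in most settings (28 at the fewest), but many ratios moved beyond their counting intervals: 24 of 30, with 1 more reversed, under the limit of 4 times given next, 21 with means over wells and 20 without the highest well. With 1 of Myl7 and Myl2 required to exceed the other by 4 times, the atrial-like share was 4.54% overall and 4.24% in AFNCM, and 296 genes were more than 2-fold lower. With that limit the log2 ratio turned for Plek (-3.93), Mcm2 (-3.19), Irf7 (-0.89), Psmb8 (-0.70), Col3a1 (-0.21), Pdgfra (-0.97), Lyz2 (-2.86) and Tyrobp (-4.05). Lyz2 and Tyrobp also turned with at least 50 Tnnt2 UMIs (-1.58 and -2.34), and, in settings chosen after seeing the data, without the wells highest in Lyz2 and Dct (-2.28 and -2.58) and without the highest well of each kind per gene (-1.95 and -2.33), where Mcm2 was at -2.36 and 70 genes were higher and 275 lower. Means over wells gave 213 lower genes and 1342 higher in AFNCM. Without the CPM filter 1443 genes were higher and 2065 lower between the kinds of well and 1634 higher in AFNCM. The causes were not tested. In bulk, the adjusted p alone gave 3789 calls (1759 higher, 2030 lower). Leaving out 1 library gave 879 to 1929 calls in all, 498 to 1074 higher and 381 to 855 lower, with the fewest without the second imCM-NF library and 988 (559 and 429) without the second imCM-AF library; a lone library was assumed to vary like the others. Such fits called 1 atrial marker each, 3 to 6 further atrial, 2 to 6 ventricular and 1 to 2 pacemaker genes. DESeq2 called 1 atrial marker and 1 pacemaker gene. The robust dispersion, the fit run first, gave 1552 calls (852 and 700). Same-numbered libraries share only a number, and their deviations correlated at -0.18. The replicate block gave 1430 calls, 1 atrial marker and 1 pacemaker gene. The crossed pairing, added after seeing the data, gave 1668 calls. Counts under about 20 CPM limit what the 88 wells can show.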

Other observations

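A pair of genes outside the atrial lists was spread over many atrial-like wells. Gpx3, a secreted glutathione peroxidase, was at 1976 CPM in the atrial-like and 50.2 CPM in the ventricular-like wells, and was seen in 73.9% and 36.6% of wells. Its well names ranged from 487 to 3201 CPM and from 24.2 to 94.0 CPM, without overlap. In the wells named AF of the fibroblasts library it was seen in 263 of 438 wells at 108 CPM, so its presence in a well is not particular to cardiomyocytes. Mlana, a melanosome protein gene chosen here after its values were seen, had 1380 UMIs in the atrial-like wells, and the highest well held 9.42% of them. It was at 501 CPM and present in 60.2% of atrial-like wells, against 128 CPM and 33.6% of ventricular-like wells, where a single well held up to 505 UMIs. Dct, another pigment cell gene chosen in the same way, lay almost wholly in 1 AFNCM3 well, which held 99.9% of its 1088 UMIs.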
